A study of Danio rerio with 57 samples.

Results

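The H3K9me3 regions of zebrafish embryos at 4 h post fertilisation (hpf, late blastula) were compared directly with those at 2 hpf (cleavage). All regions of both lists were taken, without a choice by value: 51200 regions at 4 hpf and 7516 at 2 hpf, of 190029 in the 6 lists of the series. On chromosomes 1 to 25, with touching regions merged, 47140 regions at 4 hpf stood against 7233 at 2 hpf. Per the labels, both groups were whole embryos of the AB strain, profiled with the Abcam 8898 antibody by CUT&RUN, a method that cuts and releases DNA where an antibody has bound chromatin, and spiked with E. coli DNA. The time course has 3 H3K9me3 libraries at 4 hpf and 2 at 2 hpf, of 57 libraries in the series, and nothing says whether they came from separate clutches. Each time point is represented by 1 pooled list with no value per replicate, so every difference below is a description without a test, and the read depth behind a region is unknown.

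H3K9me3, trimethylation of lysine 9 on histone H3, marks constitutive heterochromatin. It is written by methyltransferases of the Setdb1 and Suv39h families and bound by HP1 proteins, and because the writers also act on nucleosomes next to marked ones, domains of the mark can spread. In the cleavage stages zebrafish cells divide fast and transcribe little, and the zygotic genome is activated in the blastula stages, so the 2 lists lie on either side of that transition. No genome or annotation of the build of the lists was at hand, so places are named by position, counted from 1, and no gene or sequence is given.

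At 4 hpf, 89.85 Mb lay in H3K9me3 regions, against 6.29 Mb at 2 hpf. These are 6.68% of the chromosomes at 4 hpf and 0.468% at 2 hpf. The list held 35.1 regions per Mb at 4 hpf and 5.38 at 2 hpf, and the mean region was 1906 bp wide at 4 hpf and 870 bp at 2 hpf. The 14.3-fold difference in covered length thus combines a 6.52-fold difference in number with a 2.19-fold difference in mean width. The widths differed most at the upper end: the 90th percentile was 4399 bp at 4 hpf, against 1643 bp at 2 hpf, while the 10th percentile was 488 bp at 4 hpf, against 422 bp at 2 hpf. Regions 5 kb or wider held 32.8% of the covered length at 4 hpf and 1.72% at 2 hpf. The fold in length was 24.4 with regions at least 1 kb wide in both lists. It was 3.27 with the 4 hpf list reduced to its 7233 best scored regions and 6.33 with its 7233 regions of highest signal. None of the 2 hpf regions reached 10 kb, where 613 did at 4 hpf. A longer list can come from deeper sequencing or from 3 pooled libraries in place of 2 as well as from more of the mark, and these cannot be told apart here.

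The broad distribution of the mark at 4 hpf followed that at 2 hpf. Over 1336 full windows of 1 Mb, the covered shares at the 2 times had a Pearson correlation of 0.81 and a Spearman correlation of 0.79. Over 13437 windows of 100 kb the values were 0.66 and 0.56. The windows share one genome, with its repeats and its mappability, neighbouring windows are not independent, and 67.3% of the 100 kb windows hold no 2 hpf region. Within single chromosomes the Spearman correlation at 1 Mb ran between 0.66 on chromosome 8 and 0.88 on chromosome 12, with a median of 0.79, and at 100 kb between 0.49 and 0.62. Among the earlier lists, those closer in time to 4 hpf correlated more with it, with Spearman values at 1 Mb of 0.79 for 2 hpf, 0.90 for 2.5 hpf, 0.94 for 3 hpf and 0.98 for 3.5 hpf; these lists also lengthen in that order. The later list, at 4.5 hpf, had 0.94 as well. The 2.5 and 4.5 hpf lists may also hold libraries of a second experiment, in which further H3K9me3 antibodies were used. The value of 4 with 2 hpf at 1 Mb depended on which regions were entered. It was 0.50 with regions that the authors named primary, 0.56 with the best scored 50% of each list and 0.62 with regions at least 1 kb wide. With the 4 hpf list reduced to 7233 regions it was 0.62 for the best scored and 0.78 for those of highest signal.

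All 1336 windows of 1 Mb were covered more at 4 hpf than at 2 hpf. The 83 windows without any region at 2 hpf each had some at 4 hpf, with a median covered share of 1.73%, against 5.12% in the windows that had a region at 2 hpf. When windows were ranked into quintiles by their share at 2 hpf, the mean share was 2.52% at 4 hpf and 0.0421% at 2 hpf in the lowest quintile, and 14.1% at 4 hpf and 1.38% at 2 hpf in the highest. The fold thus ran from 59.9 in the lowest quintile through 25.5, 19.5 and 15.8 to 10.2 in the highest. The difference in percentage points ran the other way, from 2.48 to 12.7. A window ranked low at 2 hpf has a small denominator by construction, so the fold of the lowest quintile is in part fixed by the ranking.

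**Figure D1:**
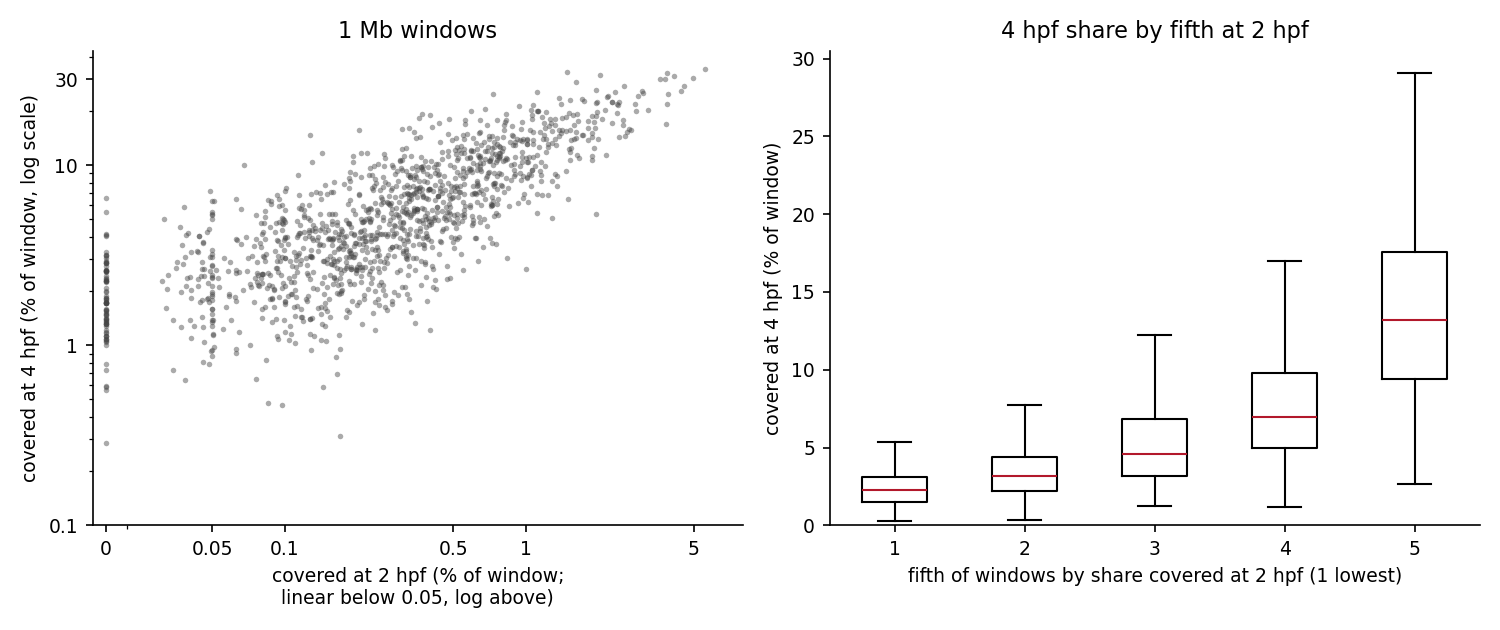
Left, share of each 1 Mb window covered at 4 hpf (y, log scale) against its share at 2 hpf (x, linear below 0.05%, log above); each point is 1 of 1336 windows. Right, 4 hpf share by quintile of windows ranked at 2 hpf; boxes give the quartiles, red lines the median and whiskers the range within 1.5 box lengths. The median was 2.26% in the lowest quintile and 13.2% in the highest.

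The full list at 4 hpf was spread over more of the windows. The most covered decile of 1 Mb windows held 29.1% of the covered length at 4 hpf and 41.1% at 2 hpf. At 4 hpf 21.8% of the windows were needed to reach 50% of the covered length, and at 2 hpf 14.2%. The order of the times depended on which 4 hpf regions were entered: the top decile held 31.3% of the length of the 7233 best scored and 43.2% of the length of the 7233 of highest signal. The top deciles of the 2 lists shared 90 of 133 windows, or 67.7% of each, where 9.96% of all windows belong to a top decile. At 100 kb, 67.3% of windows held no region at 2 hpf and 12.4% held none at 4 hpf. Windows of 100 kb empty at 2 hpf held 38.3% of the 4 hpf length, with a median share of 2.28%, against 9.80% in windows with a region at 2 hpf. Only 94 windows of 100 kb had a region at 2 hpf and none at 4 hpf.

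Some windows departed from this order. In the lowest quintile at 2 hpf, the window on chromosome 4 from 67000001 to 68000000 had 9.99% of its bases covered at 4 hpf, against 0.0675% at 2 hpf, with 43 regions against 2. On chromosome 16 from 47000001 to 48000000 the shares were 7.18% at 4 hpf and 0.0487% at 2 hpf, with 52 regions against 1. On chromosome 1 from 21000001 to 22000000 they were 6.84% and 0.0925%. In these 3 windows the shares of the lists between lay in order of time, for example 1.16%, 3.30% and 5.36% at 2.5, 3 and 3.5 hpf on chromosome 16. In the highest quintile at 2 hpf, the 2 least covered windows at 4 hpf lay on chromosome 5, where 32000001 to 33000000 had 2.64% at 4 hpf and 1.00% at 2 hpf and 35000001 to 36000000 had 3.05% and 0.841%. The next was on chromosome 1 from 52000001 to 53000000, with 3.66% at 4 hpf and 0.755% at 2 hpf. The first of the 3 held 14 regions at 4 hpf and 11 at 2 hpf.

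By chromosome, the fold in covered length lay between 12.0 on chromosome 12 and 19.3 on chromosome 4, with a median of 14.7 over 25 chromosomes. Chromosomes 12, 3, 24, 14 and 22 had folds of 12.0 to 12.3, and chromosome 21 followed chromosome 4 with 17.4. Chromosome 3 had 7.65% covered at 4 hpf and 0.628% at 2 hpf, and chromosome 21 had 5.48% and 0.316%. The highest covered share among chromosomes was 1.97 times the lowest at 4 hpf and 2.20 times at 2 hpf. Without chromosome 4 the 4 hpf value was 1.58. The 2 hpf value did not rest on chromosome 4, since chromosome 22 was highest and chromosome 21 lowest. Chromosomes kept much of their order, with a Spearman correlation of 0.84 between their shares at the 2 times. Fold and starting share had a Spearman correlation of -0.67 over the 25 chromosomes, and since the share at 2 hpf is the denominator of the fold, part of that is built in.

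Number and width contributed differently on chromosome 4. Over the other 24 chromosomes, the fold in covered length went with the fold in region number (Spearman 0.90) and not with the fold in mean width (0.02). Their mean widths were 1.93 to 2.35 times as large at 4 hpf as at 2 hpf, and their region numbers 5.46 to 7.89 times. The fold in length is the product of the folds in number and mean width. A correlation with the more variable of them is thus in part built in. On chromosome 4 the mean width was 2587 bp at 4 hpf, against 810 bp at 2 hpf, a 3.19-fold difference, while its fold in number, 6.04, was below the median of 6.54. The wider regions lay from 28 Mb onward, the long arm known to be heterochromatic and rich in repeats. There the mean width was 2717 bp at 4 hpf, against 815 bp at 2 hpf. Before 28 Mb it was 1839 bp at 4 hpf, against 785 bp at 2 hpf.

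**Figure D2:**
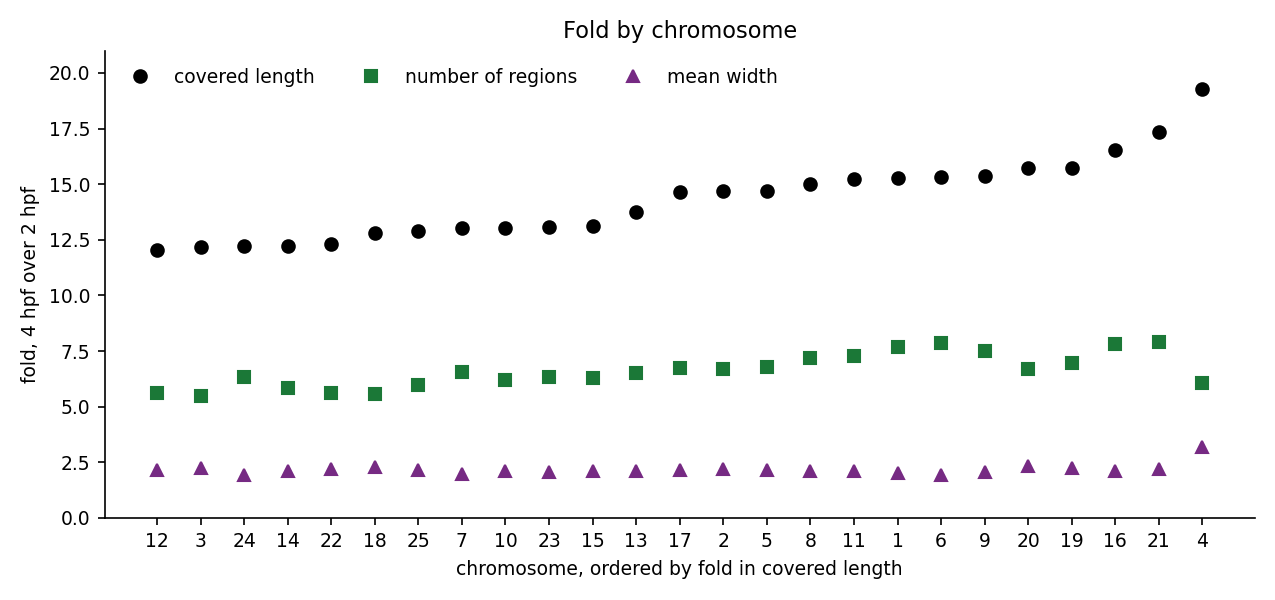
Fold of 4 hpf over 2 hpf in covered length (circles), number of regions (squares) and mean width (triangles) for the 25 chromosomes, ordered by the fold in covered length. Chromosome 4 has the highest fold in length, 19.3, and in mean width, 3.19, with a fold in number of 6.04.

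Along the chromosomes the fold was not uniform. In the outer 1 Mb 14.1% of bases were covered at 4 hpf, against 1.06% at 2 hpf, a fold of 13.3. Between 2 and 5 Mb from an end the shares were 10.6% and 0.617%, and between 5 and 10 Mb they were 6.40% and 0.370%, with folds of 17.2 and 17.3. Between 10 and 20 Mb the fold was 11.9, from 5.71% at 4 hpf and 0.481% at 2 hpf. The fold was 15.3 between 1 and 2 Mb from an end and 14.6 beyond 20 Mb, nearer the 14.3 of all chromosomes. The belt from 10 to 20 Mb measured 497 Mb of the 1345 Mb of the chromosomes. It held 31.6% of the covered length at 4 hpf and 37.9% at 2 hpf.

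Bases near a 2 hpf region were covered at 4 hpf far more often than bases farther away. Of the 4 hpf length, 28.4% lay over a 2 hpf region or within 5 kb of one, a zone that takes up 5.23% of the chromosomes. Within that zone 36.3% of bases were covered at 4 hpf, against 5.04% outside it, a ratio of 7.20. The ratio was above 1 on each of the 25 chromosomes, from 4.78 on chromosome 4 to 9.77 on chromosome 1. With regions named primary in both lists the ratio was 3.44 and the share of length in the zone 5.82%. With the best scored 50% of each list they were 3.66 and 9.23%. With the 7233 best scored regions at 4 hpf against the full 2 hpf list they were 5.50 and 23.3%. With the 7233 regions of highest signal at 4 hpf, a ranking added after the data were seen, they were 16.2 and 47.2%. With regions at least 1 kb wide the ratio was 10.5 and the zone, drawn around 1763 regions at 2 hpf, held 13.2%. Where the 2 hpf list was reduced too, the zone itself was smaller, so its share of length falls in part by construction. Overlap alone made up 5.73% of the 4 hpf length. The zone within 50 kb held 62.1% of the 4 hpf length on 32.7% of the chromosomes.

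The covered share at 4 hpf declined step by step with distance. It was 81.8% over the 2 hpf regions themselves, 56.3% in the first 1 kb beside them, 36.5% from 1 to 2 kb and 20.8% from 2 to 5 kb. From 5 to 10 kb it was 12.1%, from 20 to 50 kb 6.85%, and beyond 200 kb 2.69%. The average over the chromosomes, 6.68%, lay between the share from 20 to 50 kb and that from 50 to 100 kb, 5.23%. In the first 1 kb, the lists at 2.5, 3, 3.5 and 4 hpf covered 25.2%, 40.5%, 51.7% and 56.3% of bases. Beyond 200 kb the same lists gave 0.359%, 0.954%, 1.90% and 2.69%. Up to 4 hpf both zones were covered more in each later list, the far zone by the larger factor. The near zone began at 25.2%, which limits its factor, and the far zone had a small denominator. The order of the factors is thus in part built in.

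**Figure D3:**
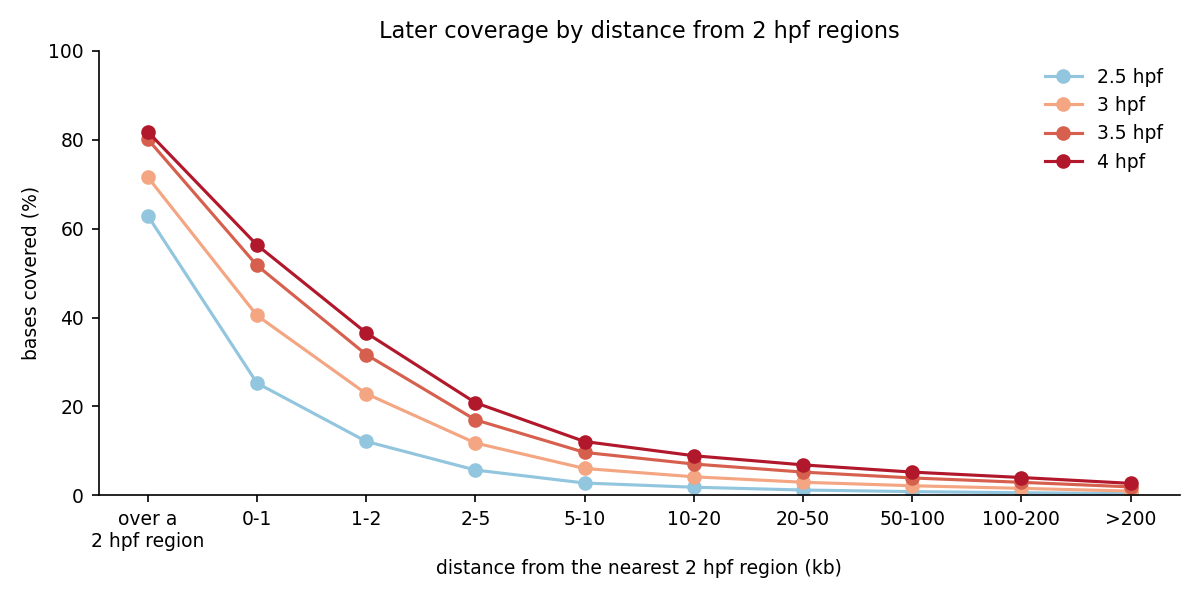
Share of bases covered at 2.5, 3, 3.5 and 4 hpf (y, percent) by distance from the nearest 2 hpf region (x, kb, unequal steps). At 4 hpf the share is 81.8% over the 2 hpf regions, 56.3% within 1 kb and 2.69% beyond 200 kb.

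Most of the length gained nevertheless lay away from the 2 hpf regions. Of 84.7 Mb covered at 4 hpf and not at 2 hpf, 18.7 Mb (22.1%) lay in 4 hpf regions that overlap a 2 hpf region. A further 5.27 Mb (6.23%) lay in separate regions within 5 kb of one. The other 60.7 Mb (71.7%) lay in regions more than 5 kb from any 2 hpf region. By number, 42219 of the 47140 regions at 4 hpf (89.6%) overlapped none, and 23855 (50.6%) lay more than 50 kb away. Most bases also lie away from 2 hpf regions, which cover 0.468% of the chromosomes. The zones within 5 kb and 50 kb take up 5.23% and 32.7% of the chromosomes. Counted by base, they held 24.1% and 59.7% of the gained length, more than those shares.

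The 4 hpf regions that lay over 2 hpf regions were the wider ones. Their median width was 3788 bp for the 4921 that overlapped any, against 972 bp for the rest. It was 3382 bp over 1 region, 7719 bp over 2 and 14713 bp over 3 or more. Among regions without overlap it still varied with distance, 1248 bp within 5 kb and 894 bp beyond 50 kb. A 2 hpf region lay under 0.98% of the 4 hpf regions narrower than 500 bp, 19.1% of those of 2 to 5 kb, 69.4% of those of 10 to 20 kb and 90.1% of the 71 of at least 20 kb. A wide region has more room to meet an earlier one, so the share of bases was taken too, which does not depend on width in that way. At 2 hpf, 0.785% of the bases in the narrowest class were covered, 5.39% at 2 to 5 kb, 11.7% at 10 to 20 kb and 13.4% at 20 kb or more, against 0.468% of the whole chromosomes.

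Individual regions show the range. The 4 hpf region over the most 2 hpf regions lay on chromosome 14 from 28775658 to 28811410, 35.8 kb long, over 6 regions that already covered 47.1% of it at 2 hpf and 90.8% at 2.5 hpf. The widest 4 hpf region, on chromosome 4 from 28726414 to 28772077, was 45.7 kb long and had 2.44% of its length covered at 2 hpf, in 2 regions. On chromosome 2, a 42.4 kb region from 12770363 to 12812771 had 8.81% covered at 2 hpf and 53.0% at 2.5 hpf. On chromosome 14, from 13579130 to 13617145, a region of 38.0 kb lay over 3 regions with 9.50% covered at 2 hpf. It was covered over 98.6% at 3.5 hpf and not at all in the 4.5 hpf list. In that list the widest region, on chromosome 4, and the one on chromosome 2 were covered over 99.95% and 99.92%. Wide regions also stood where 2 hpf had none within 5 kb. The widest of these, 24.7 kb on chromosome 13 from 27853058 to 27877733, had 11.4% of its length covered at 2.5 hpf and 58.6% at 3 hpf, and its nearest 2 hpf region was 5.26 kb away. On chromosome 4, a 22.6 kb region from 59594100 to 59616661 lay 210 kb from the nearest 2 hpf region and was covered over 3.30%, 7.61% and 55.0% at 2.5, 3 and 3.5 hpf. A 21025 bp region on chromosome 4 from 32838769 to 32859793 had nothing at 2.5 hpf, 2.38% at 3 hpf and 77.7% at 3.5 hpf.

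Where a 4 hpf region lay over exactly 1 region of the 2 hpf list, the earlier region usually sat inside it. Of 4365 such pairs, the 2 hpf region was wholly inside in 3763 (86.2%). Over all 4365 pairs the median width was 3382 bp at 4 hpf, against 647 bp at 2 hpf. Over the 3763 enclosed ones the median shorter flank was 609 bp and the median longer flank 2090 bp. In 51.7% of those, the midpoint of the 2 hpf region fell in the middle one of 3 equal parts of the 4 hpf region. The midpoint share was 46.0% in 4 hpf regions of at least 5 kb and 41.9% in those of at least 10 kb. A narrow region that meets a much wider one is often enclosed by width alone. An enclosed region cannot have its midpoint at an edge, so both the share enclosed and the midpoint share are in part built in.

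**Figure D4:**
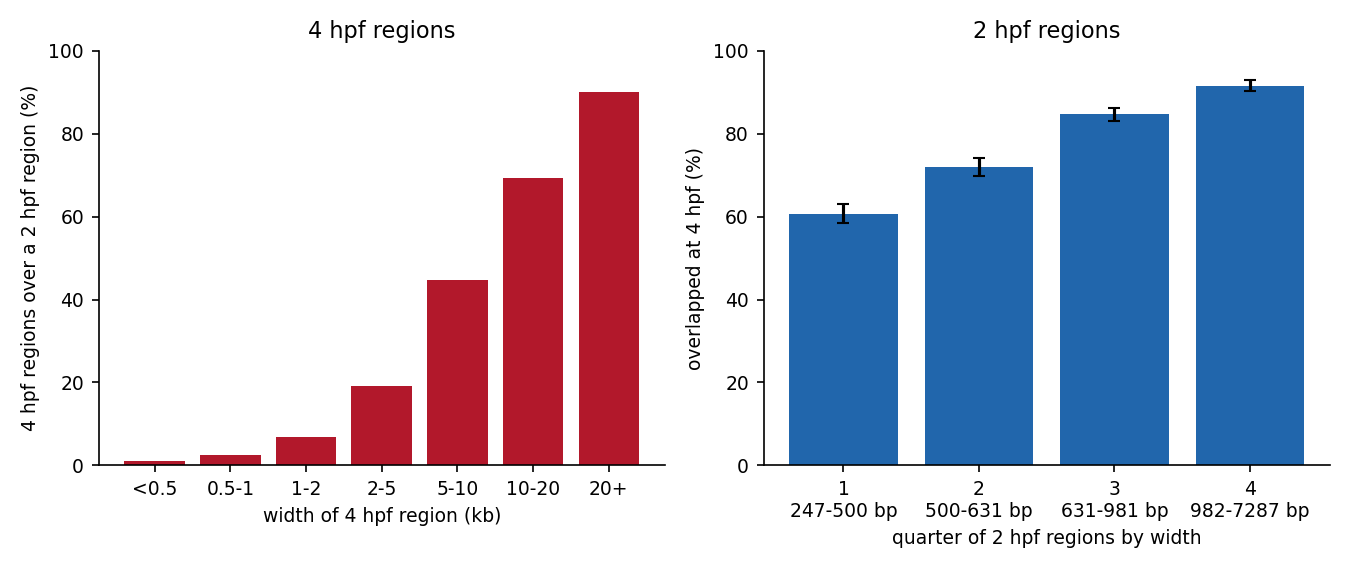
Left, share of 4 hpf regions that overlap a 2 hpf region (y, percent) by width class of the 4 hpf region (x, kb). Right, share of 2 hpf regions overlapped at 4 hpf (y, percent) by quartile group of their own width; bars give the exact 95% binomial interval, which covers counting error only. The share is 0.98% in the narrowest class on the left and 90.1% at 20 kb or more; on the right it is 60.7% in the narrowest quartile group and 91.6% in the widest.

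Seen from 2 hpf, 5587 of 7233 regions (77.2%, exact 95% binomial interval 76.3% to 78.2%, counting error only) were overlapped at 4 hpf. Of the length of all 7233, 81.8% was covered at 4 hpf, against 6.68% of all bases of the chromosomes. By chromosome the share of regions overlapped ran from 71.6% on chromosome 21 to 86.5% on chromosome 19. Wider regions were found again more often: 60.7% of the narrowest quartile group (247 to 500 bp) and 91.6% of the widest (982 to 7287 bp). Measured by length, which does not favour wide regions in the same way, 58.8% and 90.7% of those groups were covered at 4 hpf. Regions with a neighbour within 1 kb at 2 hpf were overlapped in 89.1% of cases, those with a neighbour at 5 to 50 kb in 77.2%, and those with none within 200 kb in 73.0%. In the narrowest quartile group the share was 69.8% with a neighbour within 5 kb and 59.1% without. In the widest quartile group it was 91.0% and 91.9%.

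The share overlapped depended on which 4 hpf regions were counted. All 4 hpf regions together overlapped 91.3% of the 2271 regions named primary at 2 hpf and 70.8% of the 4962 named secondary. When the 4 hpf list was also limited to its 15448 primary regions, 21.8% of the primary 2 hpf regions were overlapped. The 7233 best scored regions at 4 hpf overlapped 18.5% of the 2 hpf regions, and the 7233 of highest signal overlapped 45.8%. The best scored covered 3.27 times the length of the 2 hpf list, which is 0.468% of the chromosomes. Those of highest signal covered 6.33 times that length, so the overlap shares rest on unlike lengths. The authors' score and signal had a Spearman correlation across regions of 0.43 at 4 hpf and 0.94 at 2 hpf. Of the 7233 best scored and the 7233 of highest signal at 4 hpf, 1719 were the same. Within the 4 hpf list, before merging, regions over a 2 hpf region had a median signal of 440 against 94.2 for the rest, with median scores of 114 and 131. Both are the authors' values per region. Signal went with width at 4 hpf (Spearman 0.89 across regions), and the same groups had median widths of 3646 bp and 936 bp. The 7233 regions of highest signal had a median width of 4833 bp, so that ranking takes mostly wide regions.

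The 1646 regions of the 2 hpf list that were not overlapped at 4 hpf had a median width of 500 bp, against 685 bp for the others, and lay a median 5942 bp from the nearest 4 hpf region. Regions named primary made up 12.0% of them and 37.1% of the others. Of the 1646, 997 (60.6%) were in none of the lists at 2.5, 3 and 3.5 hpf, and 94 (5.71%) were in all of them. Among the regions overlapped at 4 hpf, 164 (2.94%) were in none of these lists and 3435 (61.5%) in all. The widest of the 1646 was a 5005 bp region on chromosome 5 from 35980029 to 35985033, covered in no later list and 53.9 kb from the nearest 4 hpf region. A 4.85 kb region on chromosome 4 from 77559949 to 77564798 was absent at 2.5 hpf, covered over 99.2% at 3 hpf and absent again at 3.5 and 4 hpf, although 31.1% of the surrounding bases, with 50 kb on each side, were covered at 4 hpf. A 3.94 kb region on chromosome 2 from 13999653 to 14003590 was covered throughout at 2.5 hpf and in no list after that.

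Neighbouring regions lay closer together at 4 hpf. The median gap was 11.8 kb at 4 hpf and 69.8 kb at 2 hpf, and the mean gap 26.6 kb and 185 kb. The nearest neighbour was within 5 kb for 48.1% of regions at 4 hpf and 22.6% at 2 hpf. These differences went with the length of the list. With the 4 hpf list reduced to its 7233 best scored regions the median gap was 1.19 times that at 2 hpf, and 11.8% had a neighbour within 5 kb. With the 7233 regions of highest signal the median gap was 0.813 times that at 2 hpf, and 23.8% had such a neighbour. The longest gap without a region was 0.894 Mb at 4 hpf and 4.75 Mb at 2 hpf.

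**Figure D5:**
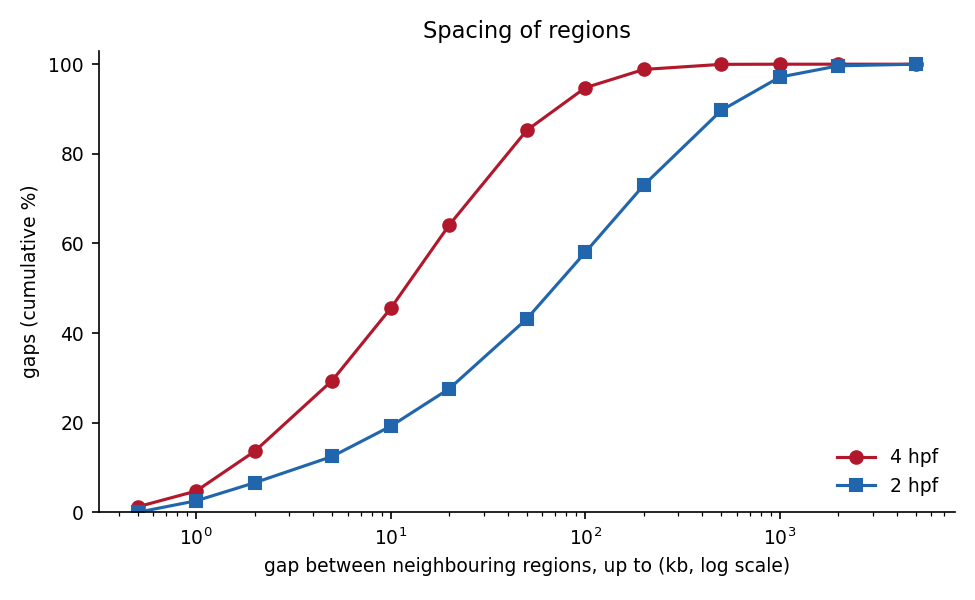
Cumulative share of gaps between neighbouring regions (y, percent) up to a given length (x, kb, log scale) for the 4 hpf list (circles) and the 2 hpf list (squares). Gaps of up to 10 kb make up 45.5% at 4 hpf and 19.2% at 2 hpf.

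Region counts varied between windows by more than independent placement at an even density would give, at both times. The measures did not order the times alike. Per 1 Mb window the region count had a mean of 34.9 and a variance of 380 at 4 hpf, and a mean of 5.33 and a variance of 29.5 at 2 hpf. For regions placed independently and at an even density the variance would equal the mean. Windows can differ in repeats and mappability, which also raises the variance. No placement was simulated, so the excess does not by itself show clustering. The variance was 10.9 times the mean at 4 hpf and 5.54 times at 2 hpf. The excess over the mean, divided by the squared mean to scale for list length, was 0.285 at 4 hpf and 0.852 at 2 hpf. It was 0.585 for the 7233 best scored regions at 4 hpf and 1.13 for the 7233 of highest signal, one below and one above the 2 hpf value. At 100 kb it was 0.400 for the full 4 hpf list, 0.787 and 1.71 for the reduced ones and 1.72 at 2 hpf. The median gap was 0.443 times the mean gap at 4 hpf and 0.377 times at 2 hpf.

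Regions were also linked into chains where gaps were up to 5 kb. The chain of most members had 20 regions at 4 hpf and 6 at 2 hpf. Chains of 5 or more numbered 491 at 4 hpf, with 6.20% of all regions, and 7 at 2 hpf, with 0.498%. Chains were not rebuilt with lists of equal size, so how far these differences go with list length was not tested. Within chains of 2 or more, regions covered 59.0% of the span at 4 hpf and 46.2% at 2 hpf. By span, the longest at 4 hpf was 94.5 kb on chromosome 4 from 28709972 to 28804443, with 5 regions covering 94.6% of it, against 3 regions and 1.71% at 2 hpf. On chromosome 1, an 84.2 kb chain from 28234156 to 28318397 was covered over 94.8% at 4 hpf, in 3 regions, and 8.64% at 2 hpf, in 6. On chromosome 20, an 83.9 kb chain from 14515146 to 14599051 had 13 regions and 73.4% covered at 4 hpf, against 5 regions and 3.91% at 2 hpf.

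Gaps between neighbouring 2 hpf regions were often covered at 4 hpf when short. Of 185 gaps of 0.5 to 1 kb, 160 (86.5%) were wholly covered. The share was 70.4% of the 291 gaps of 1 to 2 kb, 47.9% of the 422 of 2 to 5 kb, 17.3% of the 486 of 5 to 10 kb and 0.87% of the 1725 of 10 to 50 kb. A longer gap is harder to cover wholly, so part of this decline is built in. Measured by gap length, 87.5%, 77.0%, 65.0%, 48.2% and 23.6% of these classes were covered at 4 hpf. Bases in a shorter gap also lie nearer a 2 hpf region. Over all bases, the 4 hpf share was 56.3% within 1 kb of one and 12.1% from 5 to 10 kb. Part of the decline by gap length is thus built in as well. Exactly 1 region at 4 hpf overlapped the span of the chain in 473 of the 614 chains of 2 regions at 2 hpf and 70 of the 117 chains of 3 or 4. Such a region need not reach across the span. Wholly covered at 4 hpf were the spans of 360 of the 614 and 52 of the 117. Of the 5595 2 hpf regions outside any chain, 4207 also met exactly 1 region at 4 hpf. The chain of 6 on chromosome 20 from 28034702 to 28052193 was covered over 85.9% at 4 hpf, in 2 regions, and 23.4% at 2 hpf. Of the chains of 5, the one on chromosome 14 from 28779398 to 28800027 had 68.9% of its 20.6 kb covered at 2 hpf and all of it in each later list. One on chromosome 19 from 31098191 to 31114715 was covered over 94.5% at 4 hpf, in 2 regions, and 33.9% at 2 hpf.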

How the data were processed

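The authors deposited 1 list of H3K9me3 regions per time point, without a header. Of tools, HOMER, bedtools, Picard, SAMtools, STAR and Trim Galore are listed, per the submitters' processing notes, with no version. The sources used here do not give how replicates were combined, which filters were set or which genome build was used. The 2 and 4 hpf lists were assigned to the time course, since only it has libraries at these times, per the labels. The deposited score (1 to 1000), signal and p-value per region were used only to describe, rank or filter regions within a list. The sources also leave out what the deposited p-value tests, how the signal was normalised and what the region names primary and secondary mean. IgG libraries were not analysed here.

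Touching regions were merged (2252 joined at 4 hpf and 0 at 2 hpf), scaffolds were left out, and each chromosome was taken to end at the last listed base of the 6 lists (1345 Mb summed). An overlap is at least 1 bp, and windows are full windows. Clopper-Pearson intervals at 95% cover counting error only. No test was made, because each time has 1 pooled list. Places named were fixed by rule as the 3 extreme regions, chains or windows of each kind. Of 7 chains of at least 5 regions at 2 hpf, 3 are named. The comparison, its measures and its thresholds were chosen with earlier results of these data known. Scripts used Python 3.11.15, NumPy 2.4.6, pandas 2.3.3 and SciPy 1.17.1, and the interval arithmetic was tested on made-up lists against base-by-base counts.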

Additional observations from a re-analysis of the deposited data

Results flagged for a closer look

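Regions on unplaced scaffolds, which entered no comparison, came to 1808 at 4 hpf, spread over 562 scaffolds, and 283 at 2 hpf, spread over 182. They are given because they lie outside the comparisons. No IgG list was used here, so they were not set against a background. Their covered length was 3.45 Mb at 4 hpf and 0.227 Mb at 2 hpf, a fold of 15.2, and 218 of the 283 regions at 2 hpf (77.0%) were overlapped at 4 hpf. These values lie close to the 14.3-fold and 77.2% of the chromosomes, and the difference was not tested.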

How the results depend on the processing

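Of 85 values of 12 results under alternative settings, 37 stayed close, 45 moved and 3 reversed. The 37 include a value that could not change. It is the 2 hpf share with a neighbour, 22.6%, when only the 4 hpf list was cut by score. The share with a neighbour within 1 or 10 kb is another quantity than that within 5 kb, so its move was fixed in advance. Close means within 1.5 times for a ratio or a share of length, within 0.1 for a correlation and within the exact 95% binomial interval for a share of regions. That interval treats the regions of a pooled list as independent and covers counting error only. The share of 2 hpf regions overlapped thus counted as moved at 76.0%, from 77.2%. A fold in covered length of 10.4 with the best scored 50% of each list, from 14.3, counted as close. The limits are unlike, so the counts of close and moved values do not measure how sensitive the results are to the processing. The values that moved follow, in the order fold in covered length, Spearman at 1 Mb and 100 kb, share of 4 hpf length within 5 kb, ratio of near to far, share of 2 hpf regions overlapped, ratio of median gaps, and share of regions with a neighbour within 5 kb, leaving out those that stayed close. With regions named primary the Spearman values were 0.50 and 0.25, the share of length 5.82%, the ratio of near to far 3.44, the share overlapped 21.8%, the gap ratio 0.289 and the share with a neighbour 21.7% at 4 hpf and 20.6% at 2 hpf. With the best scored 50% of each list they were 0.56, 0.32, 9.23%, 3.66, 31.2% and, with a neighbour at 4 hpf, 31.0%. With regions at least 1 kb wide they were 24.4-fold, 0.62, 0.40, 13.2%, an overlap of 90.8%, a gap ratio of 0.108 and neighbours for 36.0% at 4 hpf and 15.6% at 2 hpf. With the 4 hpf list cut to its 7233 best scored regions they were 3.27-fold, 0.62, 0.35, an overlap of 18.5%, neighbours for 11.8% and a gap ratio of 1.19, which reversed. With the 7233 of highest signal, chosen after the data were seen, they were 6.33-fold, 47.2%, a near to far ratio of 16.2, an overlap of 45.8%, a gap ratio of 0.813 and neighbours for 23.8%. The ratios of 4 over 2 hpf in the length held by the top decile of 1 Mb windows (0.708) and in the excess variance of counts (0.334) reversed to 1.05 and 1.33 with the highest signal, and the excess variance moved to 0.687 with the best scored, both also tried after the data were seen. These settings enter fewer regions by construction; further causes were not tested. Joining regions up to 1 kb apart gave neighbours for 43.2% at 4 hpf and 18.6% at 2 hpf, and leaving out chromosome 4 from 28 Mb and the outer 1 Mb gave 46.1% at 4 hpf. A distance of 1 kb gave 14.5% of length, a ratio of 11.1 and neighbours for 9.24% at 4 hpf and 5.06% at 2 hpf, and 10 kb gave neighbours for 67.1% and 33.0%. Requiring 50% of a 2 hpf region to be covered gave 76.0%, and counting regions per 100 kb window gave a Spearman value of 0.43. The highest chromosome fold over the lowest stayed within 1.5 times in every setting, 1.44 to 2.30, the lowest without chromosome 4, a setting added after the data were seen.

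No paired analysis was possible because each time has 1 pooled list, and for the same reason leaving out single libraries was not run. Read depth is unknown, so a region missing from a list is not shown to be unmarked.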

Other observations

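Large stretches held no H3K9me3 region at 2 hpf. Taking the longest of each chromosome, the one on chromosome 6, from 38581606 to 43327478 (4.75 Mb), was covered over 1.86% at 4 hpf, and those on chromosome 9 from 31915736 to 35198529 (3.28 Mb) and on chromosome 5 from 29020425 to 32209738 (3.19 Mb) over 1.11% and 2.06%. All 3 lie below the 6.68% of all chromosomes. Stretches without a region at 4 hpf were shorter, and by chromosome the longest were 0.894 Mb on chromosome 3 from 23368037 to 24261636, 0.823 Mb on chromosome 4 from 45628882 to 46451565 and 0.694 Mb on chromosome 2 from 35711376 to 36405319.

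Where a 4 hpf region of at least 10 kb enclosed 1 region of the 2 hpf list, the flank towards the start of the chromosome was the longer one in 148 of 227 cases (65.2%, exact 95% binomial interval 58.6% to 71.4%, counting error only). The median flank measured 7133 bp on that side and 4209 bp on the other. In 4 hpf regions of 5 to 10 kb the longer flank was on the start side in 53.7%, at 2 to 5 kb in 52.6% and below 2 kb in 48.1%. This direction was noticed in the data and was not tested, and the interval does not allow for that choice. The lists do not show whether it belongs to the mark or to how region ends were called.

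Listed regions of exactly 500 bp made up 6.02% at 4 hpf and 16.3% at 2 hpf, and 12.0% and 23.3% were narrower than that. Between merged regions the shortest gap measured 1 bp in the 4 hpf list, against 500 bp in the 2 hpf list.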
